A study of Mus musculus with 3 samples.

Results

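Interferon-stimulated effector genes were described here as a group of 33 mouse genes, listed by name and found by symbol among the 31053 genes of the deposited RNA table. The list holds 4 members of the IFIT family, the 2 genes of the ISG15 system, 3 of the OAS family, 3 sensors of foreign nucleic acid, 7 of the PYHIN family, 7 effectors that block steps of viral growth, and 7 other interferon-induced genes. The rule that lists them names no measured value, but the members were chosen with earlier results of these data known. Every member had at least 265 unique molecular identifiers (UMIs, 1 per captured RNA molecule), the count of Ifi205, and Ifitm3 had the most, 173797. Together the members held 391947 UMIs, or 0.371% of all UMIs.

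The cells came from CITE-seq, a droplet method that reads each cell's RNA along with DNA tags on antibodies. Naive brains were from female C57BL/6 mice aged 2 to 3 months without metastases. Brains with metastases were from female C57BL/6 mice of the same age, about 2 weeks after E0771 cells, a mouse mammary carcinoma line, were injected into the carotid artery. All mice were perfused, papain was used for digestion of all brains, and a Percoll gradient enriched mononuclear cells. The label gives 1 hemisphere as the material. Each brain carried a hashing antibody of its own and the brains were loaded as 1 pool on 10x 3' v2 chemistry. The files hold 4 hashes, 2 per condition, where the design text speaks of 6 samples. Apart from the hashes, no source states that these were different animals, and every p-value reflects the spread among 4 suspensions only. E0771 is a single transplanted line, and the labels do not say which cells are tumour cells.

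Depth differed between the conditions. The naive brains held 572 and 315 cells with a median of 1394 and 1230 UMIs per cell, and the brains with metastases held 5360 and 6174 cells with a median of 7294 and 7708. The authors deposited 13 numbered clusters without names. Clusters 0, 1, 3, 4 and 5 are the large clusters, with 8408 cells, and are called tumour-like here, a name that the data bear out only in part. Of 14 carcinoma markers only Krt8 was at least 2-fold higher than in other cells with at least 50 CPM (counts per 1e6 UMIs), and 3 had no UMI. Cluster 2 was monocyte and macrophage-like, cluster 6 endothelial-like, clusters 7 and 9 choroid plexus-like and cluster 11 mural-like by their markers. Clusters 8 (T and NK cell markers with MHC class II genes), 10 and 12 (all 12 microglia markers, but led by the neutrophil genes S100a9, S100a8 and Camp) are given by number.

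Type I and type III interferons are released when cells sense viral or misplaced nucleic acid, and type II interferon is released mainly by T and NK cells. Type I and III interferons induce genes mainly through the interferon-stimulated response element (ISRE) in their promoters, and type II interferon mainly through the GAS element. The induced genes block entry, translation, replication or release of viruses, and many also sense nucleic acid and so amplify the response. In brain, microglia, vessels and the choroid plexus, the epithelium that makes cerebrospinal fluid, can all respond to interferon.

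Promoter sequence was taken from RefSeq (GRCm38.p6) as windows from 250 bases before to 50 after each annotated start. A window was found for 27 of the 33 members. Usp18, Zbp1, Ifi204, Mx1, Rtp4 and Ifi27l2a had no entry in the table. The ISRE core, GAAA followed by any 2 bases and GAAA again, searched on both strands, stood in a window of 17 of these 27 members (63%), against 1079 of 27025 genes with windows of the same length (3.99%). The GAS pattern TTCNNNGAA, which reads the same on both strands, stood in windows of 6 members (22.2%) against 9.55% of all genes. A window may hold both, as those of Oas1a, Ifitm3 and Bst2 did. For 14 members an ISRE core lay wholly before the start. A match describes the letters and is not a site or a cause, and no match says only that the letters are not in the window.

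The stretches below are shown because these members carry the changes described later, or to show members of the PYHIN family side by side. They run 5′ to 3′ on the strand of the gene, all lie upstream of the gene's annotated start, and capitals mark ISRE cores, which may overlap. Ifit1 is at chr19:34640765-34640833 (plus strand), Ifit3 at chr19:34583353-34583436 (plus), Isg15 at chr4:156200855-156200916 (minus), Bst2 at chr8:71537567-71537622 (minus), Rsad2 at chr12:26456543-26456592 (minus), Trim30a at chr7:104465200-104465249 (minus), Ifi206 at chr1:173491329-173491378 (minus), Ifi207 at chr1:173741821-173741870 (minus) and Ifi213 at chr1:173599316-173599365 (minus).
Ifit1: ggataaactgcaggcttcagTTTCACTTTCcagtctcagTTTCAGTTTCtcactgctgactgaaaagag
Ifit3: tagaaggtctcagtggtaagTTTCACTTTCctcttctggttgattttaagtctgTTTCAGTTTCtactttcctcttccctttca
Isg15: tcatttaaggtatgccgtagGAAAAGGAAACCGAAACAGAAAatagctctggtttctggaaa
Bst2: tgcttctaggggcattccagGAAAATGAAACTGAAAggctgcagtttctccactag
Rsad2: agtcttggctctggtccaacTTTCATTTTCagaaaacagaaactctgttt
Trim30a: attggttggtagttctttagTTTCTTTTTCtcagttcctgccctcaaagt
Ifi206: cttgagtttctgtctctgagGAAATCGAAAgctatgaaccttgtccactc
Ifi207: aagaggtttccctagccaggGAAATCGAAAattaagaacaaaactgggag
Ifi213: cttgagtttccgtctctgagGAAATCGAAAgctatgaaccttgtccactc
The Ifit1 and Ifit3 stretches hold 2 cores each and the Isg15 stretch holds 3. The Ifit3b stretch was identical to that of Ifit3 in 84 of 84 bases, and reads of these near-identical genes may be split between them, so their separate values are uncertain. The same holds for the PYHIN genes, for Oasl1 and Oasl2 and for Apol9a. Of the PYHIN members with a window, Ifi209 was the only one without a core.

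Levels are given as CPM of the UMIs summed over a cluster in a brain, so they describe the share of a gene in that cluster's RNA. The 33 members together were highest in cluster 2, with 6848 and 6820 CPM in the naive brains and 12383 and 11315 CPM in the brains with metastases. Endothelial-like cluster 6 held 4693 and 3345 CPM in naive brains, and cluster 3, a tumour-like cluster, held 5826 and 5805 CPM with metastases. Choroid plexus-like clusters 7 and 9 were low in naive brains, at 1668 and 702 CPM and at 951 and 824 CPM. Clusters 2, 3, 6, 7, 8 and 9 were ranked in the brains with metastases with all cells kept. Cluster 2 was highest in both brains for 25 members, and cluster 3 for Bst2, Ifi35 and Apol9a. The highest cluster differed between the brains for Ifit1, Ifit3b, Usp18, Ifi205 and Ifi44. For several members the highest cells changed when cells high in RNA of the large clusters were left out (given below). The deposited clusters were made from all genes, members included, so these levels are a description and were not tested.

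**Figure D1:**
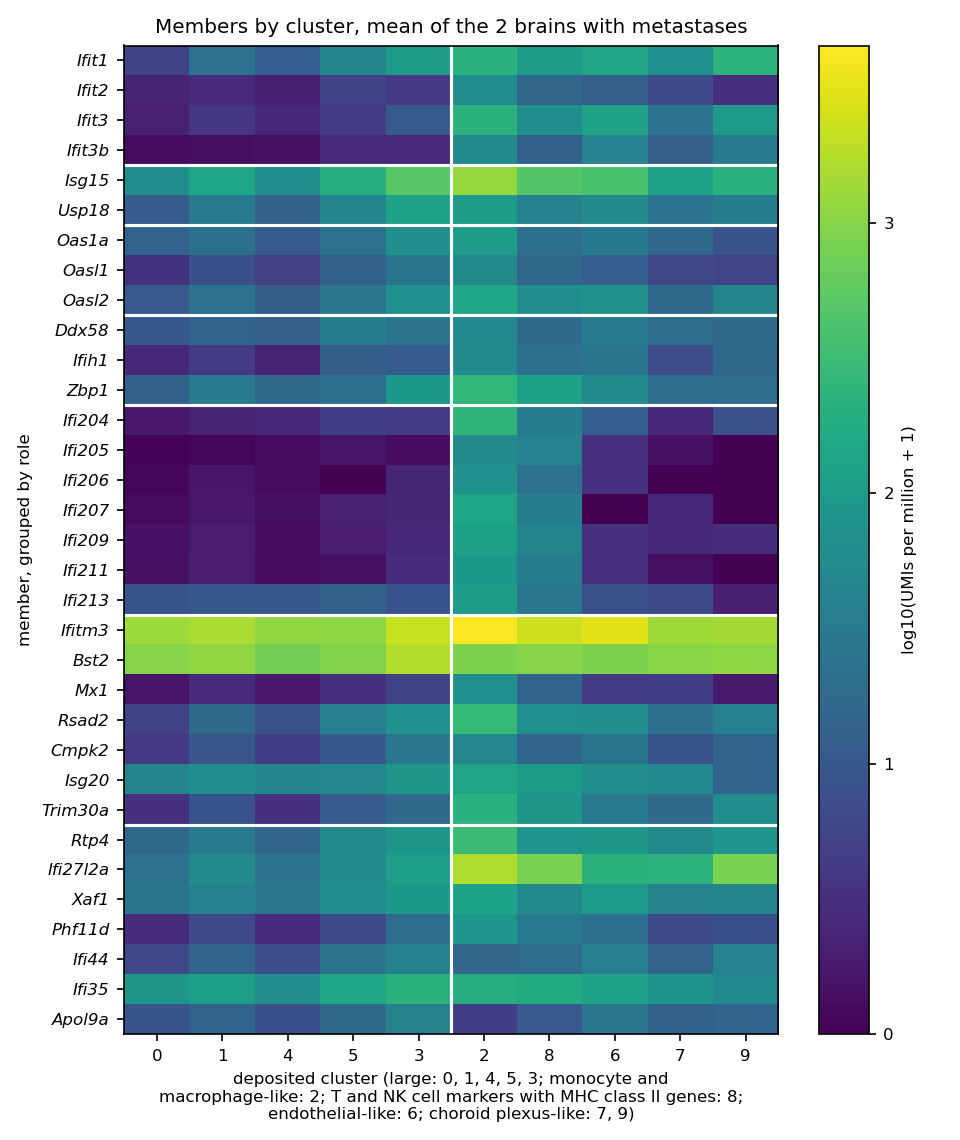
Levels of the 33 members (rows, grouped by role) in 10 deposited clusters (columns), as the mean over the 2 brains with metastases of CPM plus 1, on a log10 colour scale where lighter is higher. Most members are lightest in monocyte and macrophage-like cluster 2, and the PYHIN members are dark in the clusters shown other than 2 and 8. Cluster 12 is not drawn.

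IFIT proteins bind viral RNA and block its translation. Ifit2 was at 68.1 and 52.6 CPM in cluster 2 of the brains with metastases and between 0 and 16.9 in clusters 3, 6, 7, 8 and 9. Ifit1 was spread more widely, at 241 and 195 CPM in cluster 2, 206 and 250 in cluster 9, 134 and 137 in cluster 6 and 136 and 72.2 in cluster 3. Isg15, a small protein that is attached to other proteins like ubiquitin, was at 1238 and 1169 CPM in cluster 2, 584 and 416 in cluster 3 and 363 and 436 in cluster 6. The OAS genes make an RNA activator of RNase L or are relatives of that enzyme, and their 3 members summed to 303 and 299 CPM in cluster 2, against 37.6 and 76.3 in cluster 9. The sensors Ddx58 (RIG-I), Ifih1 (MDA5) and Zbp1 summed to 364 and 374 CPM in cluster 2, 127 and 120 in cluster 3 and 32.7 to 69.9 in cluster 9.

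PYHIN proteins bind DNA in the nucleus or cytosol, and their RNA was mostly in clusters 2, 8 and 12. The 7 members summed to 874 and 763 CPM in cluster 2 of the brains with metastases and to 806 and 426 in its naive cells. Without cells in which RNA of the large clusters was high (defined below), the sums were 965 and 872 CPM, against 312 and 426 in the naive cells. They summed to 218 and 249 CPM in cluster 8 and 292 and 306 in cluster 12, but to between 3.27 and 29.5 CPM in clusters 3, 6, 7 and 9 with metastases. Of the effectors that block viruses, Ifitm3, which stops fusion of viruses with the cell membrane, and Bst2 (tetherin), which holds budding virus on the cell, were present in every cluster shown. Ifitm3 was at 4826 and 4233 CPM in cluster 2 and 2081 and 2387 in cluster 3. Bst2 was at 811 and 884 CPM in cluster 2 and 1746 and 1726 in cluster 3. Mx1 RNA was at 77.9 and 59.1 CPM in cluster 2 and at 14.5 CPM or less in clusters 3, 6, 7, 8 and 9.

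A member was counted as concentrated in a class of clusters where its level was at least 3 times that of every other class in both brains with metastases. The classes were tumour-like, myeloid (clusters 2 and 12), lymphoid (8), choroid plexus (7 and 9), endothelial (6) and mural (11). By this description 6 members were concentrated in the myeloid class and none in any other. Ifi204 stood at 8.24 and 6.54 times the next class, Mx1 at 5.52 and 4.01, Ifit2 at 4.83 and 3.08, Ifi207 at 4.51 and 3.79, Ifi213 at 4.40 and 3.33, and Rsad2 (viperin, which blocks viral polymerases) at 4.15 and 3.52. In cluster 2 itself, Ifi204 was at 322 and 0 CPM (4 UMIs) in naive brains, against 250 and 238 with metastases, and Ifi207 at 161 and 213 against 147 and 139. Rsad2 was at 161 and 0 CPM in naive cells and 328 and 240 with metastases, while Ifi213 (113 and 97.3 CPM with metastases), Mx1 and Ifit2 had no UMI in the few naive cells. The naive values of Ifi204 lay on both sides of those with metastases, and those of Ifi207 rested on 3 UMIs. Cluster 2 alone as the myeloid class also gave 6. Without the cells high in RNA of the large clusters, Ifi204 alone kept the 3-fold distance, at 5.44 and 4.47. No member was concentrated in tumour-like or choroid plexus cells. Bst2 was the only member highest in the tumour-like class in both brains, at only 1.06 and 1.04 times the next class, and no member was highest in the choroid plexus class in both. Without the cells high in RNA of the large clusters, Ifit1, Ifit3 and Ifit3b were highest in the endothelial class in both brains. Ifit3 was then at 284 and 308 CPM there, against 238 and 252 in the myeloid class. For Ifitm3, Oasl2, Ifih1, Cmpk2, Xaf1 and Phf11d the highest class then differed between the brains.

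Within the tumour-like clusters the members marked cluster 3, and 8 of its 10 leading genes were members: Usp18, Isg15, Ifit1, Zbp1, Apol9a, Ifi44, Oas1a and Ifi35. Usp18 removes ISG15 from proteins and damps the type I receptor. In both brains with metastases 25 of 33 members were at least 2 times higher in cluster 3 than in the other large clusters combined, 4 of them (Ifit1, Ifit3, Oasl1 and Rsad2) at least 5 times, and Ifi213 was lower. Ifit1 was at 136 against 10.8 CPM in metastasis 1 and at 72.2 against 10.1 CPM in metastasis 2. Since these genes define the cluster, the values describe it and support no test. Cluster 3 held 8.16% and 19.7% of the tumour-like cells of the brains with metastases. The naive hashes held 79 and 23 cells of the large clusters, where the hashing call was less clear in naive 1 (median margin 0.407, against 2.42 in its other cells), and no large cluster held 20 cells in every brain.

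The change with metastases was tested with edgeR in the 4 clusters that held at least 20 cells in every brain (6, 7, 9 and 11). Of the members, 16 passed the filter on low counts in at least 1 of these clusters and 17 in none. A member that passed only because it was high in 1 condition had to differ, so counts over members tested are a description. RNA of the large clusters was higher in the brains with metastases in these clusters. Measured on the 50 leading genes of the large clusters, it stood at 8.64% and 11.5% of the large clusters' own level in naive cells of cluster 9 and at 18.7% and 26.9% with metastases, at 20.4% and 18.5% against 64.9% and 79.2% in cluster 7, at 35% and 37.7% against 73.7% and 60.1% in cluster 6, and at 46.3% and 28.7% against 95.2% and 94.7% in cluster 11. The changes in clusters 6, 7 and 9 are therefore also given without cells over 50% of the large clusters' level, a choice made after these values were seen. The 50 genes include ribosomal genes. Rpl13 was at 22295 CPM in the large clusters and 10347 in the highest naive cluster compared, and Rps18 at 11562 and 5076. Naive cells of cluster 8 stood at a median of 54.2% and 49.6%. The score is therefore not a measure of tumour RNA alone, and the cut may also remove other cells rich in such RNA.

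The clearest change was in choroid plexus-like cluster 9, where members of the IFIT family, the ISG15 system, the effectors that block viruses and the other interferon-induced genes were higher with metastases. Of 11 members tested there, 9 rose, against 133 of 3473 genes that rose (3.83%). The median log2 change was 3.11 over the members tested and -0.00 over all genes tested. Most of the 9 passed the filter on low counts only through the brains with metastases (named below). The count and the median are therefore a description. The other 22 members, with every OAS, sensor and PYHIN member among them, did not pass the filter on low counts.

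In cluster 9, Ifit1 stood at 20.6 and 9.87 CPM without metastases (naive 1 and naive 2) and at 206 and 250 CPM in metastasis 1 and metastasis 2. Both brains with metastases lay above both naive brains, as they did for each of the 9 members, where 1655 of 3473 genes (47.7%) had groups that did not overlap in either direction. The log2 change of Ifit1 was 3.79 ± 0.41 (SE, n = 2 brains per condition, edgeR adjusted p = 4.6e-08). Ifit3 was at 0 and 9.87 CPM, from 2 UMIs, in naive brains, against 55.6 and 134 with metastases. The ratio of its pooled UMIs was 17.8 (95% counting interval 4.79 to 149), and its log2 change was 4.01 ± 0.72 (adjusted p = 5.2e-04). Isg15 was at 15.4 and 19.7 CPM in naive brains, against 157 and 275 CPM with metastases, a log2 change of 3.48 ± 0.42 (adjusted p = 8.1e-07). The level in metastasis 2 was the higher for each of these genes.

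Ifitm3 was at 288 and 237 CPM in naive cells of cluster 9 and at 1185 and 1731 with metastases, a log2 change of 2.38 ± 0.22 (adjusted p = 1.1e-09). Bst2 had the smallest change of the 9, from 447 and 341 CPM to 981 and 1189, a log2 change of 1.37 ± 0.20 (adjusted p = 4.3e-05). Trim30a, a TRIM protein that restrains inflammatory signalling, was at 0 and 4.94 CPM, from 1 UMI, in naive brains, against 52.3 and 69.9 with metastases. Its log2 change was 4.33 ± 0.81 (adjusted p = 6.8e-04). Rsad2 had no UMI in the naive cells and stood at 45.8 and 33.9 CPM with metastases, at least 5.37-fold higher against a floor of 3 UMIs over both naive brains. It passed the filter on low counts only through the brains with metastases, as did Ifit1, Ifit3, Isg15, Trim30a and Rtp4. The place of these members among the 9 is therefore a description.

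Ifi27l2a, a small protein strongly induced by interferon, was at 87.4 and 93.8 CPM in naive cells of cluster 9 and at 577 and 1112 with metastases. Its log2 change was 3.11 ± 0.29 (adjusted p = 1.1e-09), and metastasis 2 stood well above metastasis 1. Rtp4, a chaperone of receptors that also limits some viruses, was at 15.4 and 9.87 CPM in naive brains, against 50.7 and 117 with metastases, a log2 change of 2.56 ± 0.57 (adjusted p = 0.0048). The 2 tested members that did not pass were Xaf1, at a log2 difference of 1.81 (adjusted p = 0.0669), and Ifi35, at 0.24 (adjusted p = 0.86).

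**Figure D2:**
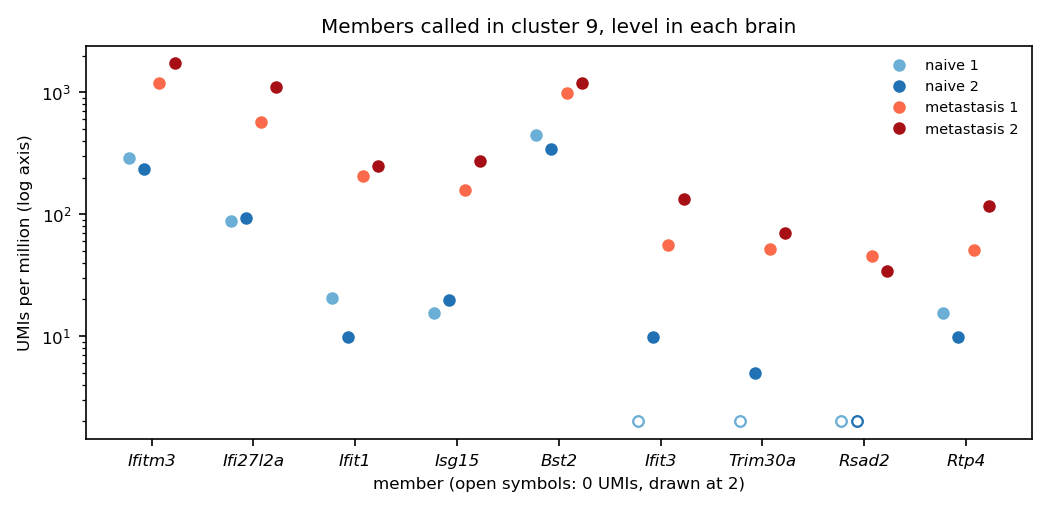
CPM of members in choroid plexus-like cluster 9 that rose there, on a log axis, with 1 point per brain, naive brains in blue and brains with metastases in red, and open symbols for 0 UMIs. For the 9 members that rose, from Bst2 at 447 CPM or less in naive brains to Rsad2 at 0, both points with metastases lie above both naive points.

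The same 9 members rose in cluster 9 without cells over 50%, of 10 tested, against 28 of 2722 genes (1.03%), with a median log2 change of 3.39. The filter on low counts acted in the same way here, so this count and median are a description too. RNA of the large clusters was then at 8.64% and 8.25% of their level in naive cells and at 11.2% and 10.8% with metastases. The 10 choroid plexus markers summed to 387286 and 419340 CPM in these naive cells and 388100 and 384281 CPM with metastases. Monocyte and macrophage markers summed to 149 and 123 CPM in all naive cells of cluster 9 and to 221 and 161 with metastases, against 26820 and 19013 CPM in cluster 2 with metastases. Without cells that held a UMI of a myeloid marker, which leaves 18 and 19 naive cells, all 6 members that could still be tested rose. The share of all genes that rose in that setting was not taken, so this count is a description. Single brains decided several calls: 3 members (Ifi27l2a, Ifitm3 and Isg15) passed without metastasis 1, 5 without metastasis 2, 8 without naive 1 and 11 without naive 2.

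In the larger choroid plexus-like cluster 7 fewer members passed, on a background of many changed genes. Of 13 members tested, 3 rose, against 848 of 5963 genes (14.2%), and 1008 genes fell, so a count of 3 members is near the background. Isg20, an exonuclease that degrades RNA, was at 3.50 and 0 CPM, from 1 UMI, in naive brains, against 43.8 and 56 with metastases (log2 change 4.04, adjusted p = 0.0062). Its pooled ratio was 21.5 with a counting interval of 3.76 to 857, and it passed the filter on low counts only through the brains with metastases. Ifitm3 was at 602 and 247 CPM against 1105 and 1594, a log2 change of 1.34 ± 0.34 (adjusted p = 0.0145). Bst2 was at 521 and 291 CPM against 906 and 1134, a log2 change of 1.02 ± 0.27 (adjusted p = 0.0172). The groups did not overlap for these 3 genes, but 4276 of 5963 genes (71.7%) had no overlap either, and the naive brains differed from each other for Ifitm3 and Bst2 by nearly as large a factor as the change. The choroid plexus markers summed to 274437 and 257436 CPM in naive cells of this cluster and to 124095 and 74053 with metastases, while RNA of the large clusters stood higher as given above. The part of either in these changes was not tested.

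Without cells over 50%, cluster 7 had choroid plexus marker sums of 306013 and 286957 CPM in naive brains, against 318983 and 312155 with metastases, and only 3 of 2160 genes rose (0.139%). All 3 were members, of 7 tested. Ifit1, Isg15, Trim30a and Rtp4 passed the filter on low counts only through the brains with metastases, so this count is a description. Ifitm3 was at 389 and 217 CPM in naive brains, against 1023 and 1383 with metastases, a log2 change of 1.94. Ifit1 was at 19.6 and 0 CPM against 269 and 153, a log2 change of 4.01. Bst2 was at 322 and 217 CPM against 845 and 859, a log2 change of 1.64. Each had an adjusted p of 0.0292, and Isg20 was left with 2 UMIs with metastases and none in naive cells. Ifi27l2a was at 196 and 50.1 CPM against 548 and 1048 (log2 difference 2.50, adjusted p = 0.0948) and Isg15 at 43.2 and 8.35 against 139 and 146 (2.19, adjusted p = 0.253). In all cells of cluster 7, between 2 and 9 members passed when 1 brain was left out, with 9 without naive 1 and 7 without metastasis 1.

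Endothelial-like cluster 6 had a high level of members already in naive brains. Isg15 was at 290 and 173 CPM there, Ifitm3 at 2843 and 1500 and Ifi27l2a at 322 and 291, each above the naive level of cluster 9. Of 15 members tested, Ifit3 alone rose, against 106 of 4539 genes (2.34%), while 238 genes fell. Ifit3 was at 32.9 and 45.4 CPM in naive brains, against 102 and 148 with metastases, a log2 change of 1.70 ± 0.43 (adjusted p = 0.0379). The naive brains alone would not have carried Ifit3 past the filter on low counts, so the count of members that rose is a description. The groups did not overlap, as for 2576 of 4539 genes (56.8%). It did not pass without naive 1 or without metastasis 2, at a log2 difference of 1.45 in each case. The number of members that rose was 0 without metastasis 2, 2 without naive 2 and 3 without metastasis 1. Log2 differences of members that did not pass were 1.06 for Ifit1 (adjusted p = 0.0892), 0.78 for Bst2 (0.0698), 0.77 for Isg15 (0.11), 0.51 for Ifitm3 (0.264) and -0.48 for Ifi27l2a (0.536).

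Without cells over 50%, no gene of 2441 (0%) passed in cluster 6 with edgeR, and 226 had an unadjusted p under 0.05, among them 9 of 12 members tested. All 12 had a log2 difference above 0, with a median of 1.10 against 0.01 over all genes tested. Of these, Ifit3, Usp18, Rsad2, Rtp4 and Xaf1 passed the filter on low counts only through the brains with metastases. The counts, the shared direction and the median are therefore a description. Ifit3 was at 30.5 and 33 CPM in naive brains, against 284 and 308 with metastases (log2 difference 3.19, adjusted p = 0.0557). Isg15 was at 297 and 154 CPM against 843 and 672 (1.69, adjusted p = 0.0981). The 31 members other than Ifitm3 and Bst2 summed to 1422 and 1254 CPM in naive cells and 1454 and 2180 with metastases in all cells of cluster 6, and to 1357 and 1091 against 3242 and 3532 without the cells over 50%. The setting moved the sums with metastases and left those of naive cells near their first values.

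**Figure D3:**
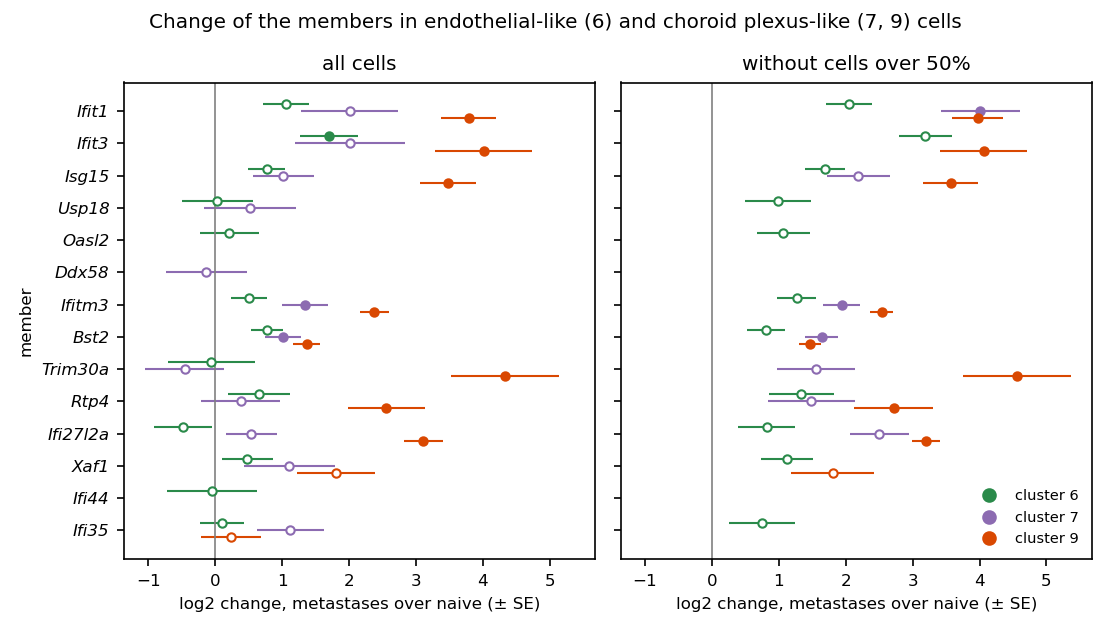
Log2 change of members (brains with metastases over naive brains, edgeR) in clusters 6, 7 and 9, with bars of 1 SE and filled symbols past the threshold, for all cells (left) and without cells over 50% of the large clusters' level (right). Rsad2 and Isg20 are not drawn. Cluster 9 values lie near each other in both settings, Ifit1 at 3.79 with all cells, while the cluster 6 value of Ifit3 goes from 1.70 to 3.19.

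Mural-like cluster 11 had 4 members tested and none passed, against 100 of 2620 genes that rose (3.82%). Of the 4, 1 had an unadjusted p under 0.05, and DESeq2 also called none. The 31 members other than Ifitm3 and Bst2 summed to 484 and 461 CPM in naive cells of cluster 11, against 407 and 440 with metastases. With the cells over 50% left out, these sums were 620.5 and 434.5 CPM in naive brains, against 1677 and 2408. With at least 10 cells per brain, 4 more clusters could be tested. In cluster 8, 2 of 14 members rose, against 12 of 3373 genes (0.356%): Ifitm3, at 1181 and 1063 CPM in naive brains, against 2514 and 2246 with metastases (log2 change 1.37, adjusted p = 0.0046), and Bst2, at 498 and 425 against 1010 and 980 (1.40, adjusted p = 0.0398). In cluster 12, 3 of 5 members rose, against 18 of 989 genes (1.82%). Isg15 was at 83.4 and 60.7 CPM against 504 and 856 there (log2 change 3.03, adjusted p = 0.0035), and Ifitm3 at 853 and 522 against 2149 and 2507 (1.61, adjusted p = 0.0193). Ifit1 had no UMI in naive cells of cluster 12 and 186 and 306 CPM with metastases, at least 15.3-fold higher. Ifit1 and Isg15 passed the filter on low counts there only through the brains with metastases. None of 4 members, and 1 of 964 genes (0.104%), rose in cluster 12 without cells over 50%, where 2 members had an unadjusted p under 0.05, and its naive 2 cells held 33232 CPM of neutrophil markers. None of 24 members passed in cluster 1 (3 of 9686 genes rose, 0.031%), where 2 had an unadjusted p under 0.05. None of 7 passed in cluster 10 (10 of 2666 genes, 0.375%), where 0 had an unadjusted p under 0.05.

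Cluster 2 held only 10 and 5 naive cells, so it has no test. Intervals here cover counting error only. The ratio of pooled levels, metastases over naive, was 1.70 for Ifitm3 (1.27 to 2.33), 2.05 for Isg15 (1.11 to 4.27), 2.54 for Ifi27l2a (1.42 to 5.10) and 0.585 for Bst2 (0.396 to 0.905). When cells over 50% were left out, which leaves 7 and 5 naive cells, the ratio of Bst2 turned to 1.57 (0.721 to 4.28), from 6 naive UMIs, and those of Ifitm3, Isg15 and Ifi27l2a were 1.48, 2.94 and 2.02. Ifi204, the PYHIN gene with the most UMIs there, had a ratio of 1.04 (0.405 to 3.82), but all 4 of its naive UMIs came from cells over 50%. Without those cells it was at 0 and 0 CPM in naive brains, against 276 and 270 with metastases. Ifit1 had 817 UMIs with metastases and none in the naive cells, a ratio of at least 1.22-fold. The 31 members other than Ifitm3 and Bst2 summed to 2900 and 2344 CPM in naive cells of cluster 2 and to 6746 and 6197 with metastases.

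**Figure D4:**
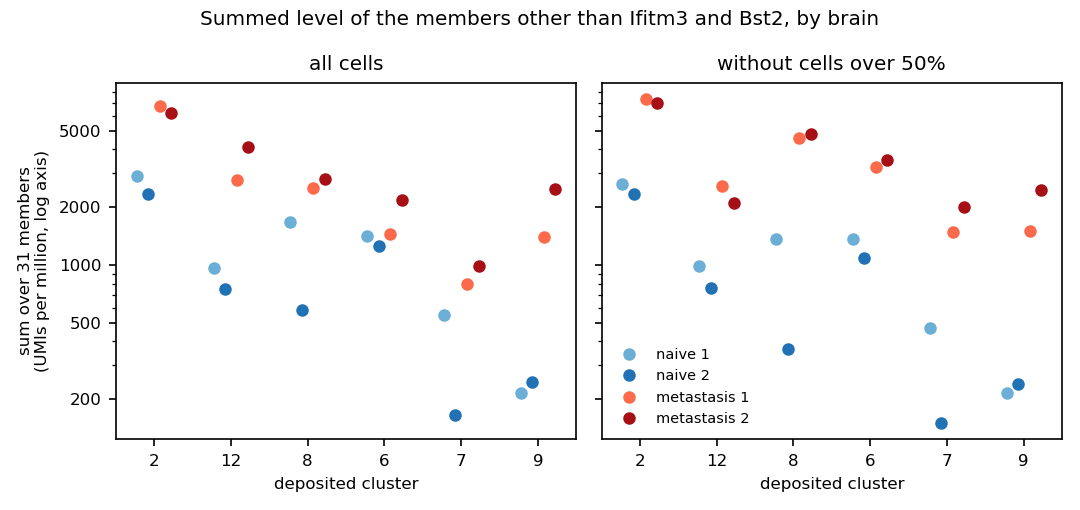
Summed CPM of the 31 members other than Ifitm3 and Bst2 by brain in clusters 2, 12, 8, 6, 7 and 9, with 1 point per brain on a log axis, for all cells (left) and without cells over 50% of the large clusters' level (right). In cluster 9 the naive points are at 216 and 247 and those with metastases at 1401 and 2485 for all cells.

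Whether the change of a member differed between clusters was tested as an interaction with the brain as a block, for all 6 pairs of the tested clusters. Between clusters 9 and 6 the change differed for 6 of 17 members, against 62 of 5531 genes (1.12%), and it was larger in cluster 9 each time. The difference was 3.62 ± 0.41 (log2, SE) for Ifi27l2a (edgeR adjusted p = 6.9e-15), 2.66 ± 0.70 for Ifit1 (0.0172), 2.59 ± 0.56 for Isg15 (0.00139) and 1.74 ± 0.36 for Ifitm3 (8.8e-04). Rsad2 (0.0149) and Ifi44 (0.0289) also passed, but neither had a naive UMI in cluster 9. Ifi44 was at 0 and 0 CPM in naive cells and 21.2 and 59.3 with metastases in cluster 9, and at 19.7 and 63.6 against 20.4 and 54.2 in cluster 6. Ifi27l2a was the only member that passed without cells over 50%, at 2.47 ± 0.42 (adjusted p = 2.7e-04), and 11 of 3713 genes passed (0.296%). The difference was then 1.93 ± 0.69 for Ifit1 (adjusted p = 0.394), 1.86 ± 0.60 for Isg15 (0.295) and 1.25 ± 0.36 for Ifitm3 (0.162), all larger in cluster 9. Without the block 1 member passed.

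Between clusters 9 and 7 the change differed for 3 of 14 members, against 370 of 5363 genes (6.9%): Ifi27l2a by 2.43 ± 0.39 (adjusted p = 1.5e-05), Isg15 by 2.27 ± 0.63 (0.014) and Trim30a by 4.88 ± 1.27 (0.00786). Without cells over 50% none of 10 members and none of 2780 genes (0%) passed, and 1 member had an unadjusted p under 0.05. The difference was then 0.60 for Ifi27l2a, 1.21 for Isg15 and 3.00 for Trim30a. The change in mural-like cluster 11 minus that in cluster 9 was -4.48 ± 0.85 for Isg15 (adjusted p = 2.3e-05), -1.83 ± 0.40 for Ifitm3 (3.6e-04) and -8.00 ± 1.91 for Ifit3 (0.00191), or 3 of 10 members against 125 of 4063 genes (3.08%). Cluster 11 could not be tested without cells over 50%, since 6 cells were left in each brain with metastases. In the cells left, the direction turned for Isg15 and Ifit3. The pooled ratio, metastases over naive, went from 0.492 to 4.07 for Isg15 (counting interval 1.52 to 10.9) and from 0.0785 to 2.72 for Ifit3 (0.227 to 23.7). No member passed in the pairs 6 and 7 (3.51% of genes passed), 6 and 11 (2.2%), and 7 and 11 (2.06%), and 2 members had an unadjusted p under 0.05 in each of these pairs.

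The share of cells with a UMI of any of the 31 members other than Ifitm3 and Bst2 was compared after each cell was thinned to 1000 UMIs. In cluster 9 it was 17.5% (exact 95% interval 7.34 to 32.8) and 13.9% (4.67 to 29.5) of naive cells and 47.4% (37.2 to 57.8) and 51.4% (39.3 to 63.3) of cells with metastases. The unthinned shares were 42.5% and 52.8% against 76.3% and 90.3%. In cluster 7 the thinned share was 27% and 16.7% of naive cells and 45.5% and 58.7% with metastases, and in cluster 6 it was 68.8% and 52.9% against 62.2% and 65.9%. Thinned to 500 UMIs instead, with fewer cells left out, the share in cluster 6 was 41.9% and 46.9% of naive cells, against 53.5% and 54.4% with metastases. At that depth, leaving out cells over 50% gave 44.8% and 38.6% against 60.9% and 63.8%. In cluster 2 with metastases it was 95.6% and 94.5%. RNA free in the pooled suspension can reach all droplets. Its level was not measured, and its part in these shares was not tested. The naive cells of cluster 9 were among the lowest of these groups. The median depth before thinning was 4574 and 5576 UMIs in naive cells of cluster 9, 5371 and 5338 with metastases, and 1548 and 1466 in cluster 2 with metastases. No cell of cluster 9 was too shallow, while 107 and 64 naive cells of cluster 6 and 81 and 40 with metastases were left out.

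By gene, Ifit1 had a UMI in 0 of 40 and 0 of 36 thinned naive cells of cluster 9 (exact upper bounds 8.81% and 9.74%) and in 15.5% and 20.8% of cells with metastases. Isg15 had a UMI in 2.5% and 5.56% of naive cells and 12.4% and 20.8% with metastases, against 54.5% and 53.8% in cluster 2 with metastases. At this depth each of these RNAs was seen in a minority of cluster 9 cells. The intervals cover counting error only.

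Other genes of the pathway also rose in cluster 9. Irf7, the factor that amplifies type I interferon, was at 20.6 and 9.87 CPM in naive brains, against 73.5 and 193 with metastases (log2 change 2.98 ± 0.54, adjusted p = 5.2e-04), and was the only one of 15 signalling genes in the table that was tested there. Of 36 other interferon-induced genes in the table, 3 were tested and 2 rose: Lgals3bp (log2 change 1.48) and Ly6e (1.28). Of 20 genes linked to interferon gamma, both that were tested rose: Psmb8, an immunoproteasome subunit (4.46), and B2m, the light chain of MHC class I (1.56). Of all genes tested in cluster 9, 3.83% rose. Irf7 and Psmb8 passed the filter on low counts only through the brains with metastases, so these counts are a description. In cluster 7, 1 of 6 signalling genes tested rose (Tmem173, the DNA-sensing adaptor STING), 1 of 8 other induced genes (Ly6e, 1.57) and 2 of 4 gamma-linked genes (Psmb8, 1.36, and Gbp3, 2.77), where 14.2% of all genes rose. Tmem173 and Gbp3 passed the filter on low counts there only through the brains with metastases. With cells over 50% left out, 1 signalling, 3 other induced and 1 gamma-linked gene could be tested in cluster 7 and 0 of them passed, while in cluster 9 Irf7 (3.12), Lgals3bp (1.68), Ly6e (1.20) and B2m (1.47) rose. In that setting 1.03% of all genes rose in cluster 9, and Irf7 again passed the filter only through the brains with metastases.

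In cluster 6 none of 6 signalling genes and none of 12 other induced genes tested passed, 1 of 10 gamma-linked genes rose (Iigp1, 2.78), and 1 of 5 receptor genes fell (Il10rb, by 1.59), where 2.34% of all genes rose and 238 of 4539 fell. Iigp1 passed the filter on low counts only through the brains with metastases. Among the remaining cells below 50%, 0 of 7 gamma-linked and 0 of 2 receptor genes passed there. In cluster 11 Socs3, an inhibitor of cytokine signalling, fell by 2.49 and Ifitm2 fell by 1.01. They were among 2 signalling and 2 other induced genes tested, where 322 of 2620 genes fell. With metastases 77.8% and 83.8% of the cells of cluster 11 were over 50% of the large clusters' level, against 4.17% and 3.7% in naive brains. The part of this in the falls was not tested. Interferon RNA itself was scarce in all cells. Ifnb1 had 19 UMIs, 6 of them in cluster 2 and 8 in cluster 3, and Ifng had 24, of which 16 in cluster 8. Of 10 type I and III ligand genes, Ifna2 and Ifna4 had 1 UMI each and the other 7 had 0. Ifnar1 and Ifnar2, the chains of the type I receptor, had 1434 and 1697 UMIs, and Ifnlr1, the specific chain of the type III receptor, had 6, of which 2 in cluster 7 and 4 in cluster 9.

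Across the 33 members, 10 rose, with all cells kept, in at least 1 of the 4 tested clusters: Ifit1, Ifit3, Isg15, Ifitm3, Bst2, Rsad2, Isg20, Trim30a, Rtp4 and Ifi27l2a. The share of all genes that rose in at least 1 of the tested clusters was not taken. By cluster it was 2.34% (6), 14.2% (7), 3.83% (9) and 3.82% (11), and Isg20 was called only in cluster 7. The change of 8 members differed between clusters, these being Ifit1, Ifit3, Isg15, Ifitm3, Rsad2, Trim30a, Ifi27l2a and Ifi44. In single pairs of clusters the change differed for 1.12% to 6.9% of all genes. The members concentrated in the myeloid class numbered 6. The remaining 17 met none of these. Of them, 12 were highest in cluster 2 in both brains with metastases (Oas1a, Oasl1, Oasl2, Ddx58, Ifih1, Zbp1, Ifi206, Ifi209, Ifi211, Cmpk2, Xaf1 and Phf11d), Ifi35 and Apol9a in cluster 3, and for Ifit3b, Usp18 and Ifi205 the highest cluster differed between the brains.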

How the data were processed

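The authors deposited raw UMI counts per gene and cell (whole numbers, not normalised) with a hashing antibody, a condition and a cluster number for each of 12421 cells. Per the submitters' processing notes the tools were Seurat 3.0.1 and Cell Ranger 3.0.2 and the build was mm10 (GRCm38), and their settings were not stated. The hashing margin is a score between the best and second antibody that the authors deposited for each cell. The percent of mitochondrial UMIs per cell, as deposited by the authors, was at most 24.9%, no cell had under 500 UMIs, and none was removed. Scrublet in scanpy 1.11.5 called 226 cells (1.82%) doublets, left out only as an alternative.

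Counts were summed per brain and cluster and tested with edgeR 4.0.16 (quasi-likelihood, TMM, filterByExpr, R 4.3.3) in clusters with at least 20 cells in every brain. P-values were adjusted by Benjamini-Hochberg over all genes tested, with a threshold of 0.05. Differences of change between clusters had the brain as a block. The fit was tested on simulated data: in cluster 9, 100% of 4-fold and 46% of 2-fold changes were recovered, with 9 false calls among 3601 genes. All genes were simulated with the same fixed spread. The changed genes were picked for higher expected naive counts than those of members such as Rsad2, Trim30a and Ifit3. These rates therefore need not hold for such members or for the real spread between brains. Shares were taken after thinning each cell to 1000 UMIs, with exact binomial intervals at 95%. Values in every brain are given for members past the threshold (the 8 with the smallest p where there are more, and here also the ninth), concentrated in 1 class or differing between clusters. The members and lists were chosen with earlier results of these data known. Alternatives were DESeq2 1.42.0, other scaling, no low-count filter, brains left out, doublets or cells with myeloid, neutrophil or carcinoma UMIs left out, 1 fit over all tested clusters, and the settings on large-cluster RNA, which were added after seeing the data. The pathway symbols Sting1, Cgas, Oas1b and Mx2 did not match the table, which lists Tmem173 for STING.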

Additional observations from a re-analysis of the deposited data

Results flagged for a closer look

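Differences of the change between clusters, from the edgeR interaction test, are listed here with their values. The change (log2, brains with metastases over naive brains) in cluster 9 minus that in cluster 6 was 3.62 for Ifi27l2a, 2.66 for Ifit1, 2.59 for Isg15, 1.74 for Ifitm3, 6.99 for Rsad2 and 7.15 for Ifi44. Rsad2 and Ifi44 had no naive UMI in cluster 9, so their fitted values depend on the prior count and are no measure of size. Without cells over 50% of the large clusters' level Ifi27l2a was the only one of them that passed, at 2.47, and the differences were 1.93 for Ifit1, 1.86 for Isg15 and 1.25 for Ifitm3. In cluster 9 minus cluster 7 the difference was 2.43 for Ifi27l2a, 2.27 for Isg15 and 4.88 for Trim30a, the last from 1 naive UMI in cluster 9, and none of them passed without those cells, at 0.60, 1.21 and 3.00. In cluster 11 minus cluster 9 it was -4.48 for Isg15, -1.83 for Ifitm3 and -8.00 for Ifit3. Ifit3 had 3 naive UMIs and 2 with metastases in cluster 11, a pooled ratio of 0.0785 (0.00655 to 0.685). With cells over 50% left out, and 6 cells left in each brain with metastases, the direction turned, at 2.72 (0.227 to 23.7), and the ratio of Isg15 went from 0.492 to 4.07 (1.52 to 10.9). RNA of the large clusters stood at 95.2% and 94.7% of their level in cluster 11 with metastases, and its part in these differences was not tested. No outlier within a group could be sought with 2 brains per condition.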

How the results depend on the processing

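The direction of each of 13 member changes called in clusters 6, 7 and 9 was kept under all 168 alternatives computed for them, and the call under 143, while 25 lost it. Settings in which a member did not pass the filter or had no adjusted p were not counted. Rsad2 in cluster 9 therefore had 8 alternatives and Isg20 in cluster 7 had 11, against 15 for Ifitm3 in cluster 7. The direction was looked at only for changes already called in these data. Of the 9 members called in cluster 9, 3 were called with DESeq2, where 8 of the 11 tested had no adjusted p and so are not lost calls, and 5 without called doublets. When 1 brain was left out, the number ranged from 3 to 11, and then the lone brain is assumed to vary like the others. In cluster 7, where 3 were called, the number was 7 without scaling factors, 7 without the low-count filter, 5 without doublets, 5 without cells with a myeloid UMI, 1 without cells with 3 carcinoma UMIs and 5 without cells over 25% of the large clusters' level, and from 2 to 9 without 1 brain. In cluster 6, where 1 was called, it was 0 with DESeq2, 0 without the low-count filter, 0 without cells with a myeloid UMI, 0 without cells with 3 carcinoma UMIs, 0 without cells over 50% or over 25%, 0 in 1 fit over all tested clusters, and from 0 to 3 without 1 brain. Members whose change differed between clusters 9 and 6 numbered 1 without the brain block and 1 without cells over 50%, and between clusters 9 and 7, 0 without cells over 50%. The concentrated members numbered 15 at 2 times, 1 at 5 times and 1 without cells over 50%. No paired analysis was possible because the labels give no replicate numbers shared between the conditions. Leaving out cells with carcinoma UMIs in clusters 9 and 11, and cells with myeloid UMIs or high large-cluster RNA in cluster 11, left too few cells and was not run. Thinning lowered the shares of cells with a UMI. In cluster 9, 22 members could not be tested because they were too low for the filter in the brains of both conditions. Few cells limit the naive side of cluster 2, which had 15 naive cells.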

Other observations

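Ifi27l2a differed between the brains with metastases in several clusters. It was at 32.3 CPM in metastasis 1 and 187 in metastasis 2 in cluster 3, at 107 and 337 in cluster 6, at 18.7 and 84.0 in cluster 1 and at 577 and 1112 in cluster 9, but at 1712 and 1584 in cluster 2.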
